A study of Salmo salar with 34 samples.

Results

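The midgut of Atlantic salmon was compared between fish given a high and fish given a low level of inorganic minerals (IM). The groups were taken from the sample labels. They comprised 14 of the 34 arrays of the series, 6 fish at high IM (4 females and 2 males) and 8 fish at low IM (5 females and 3 males), with 1 fish per array. All were post smolts held in sea water and sampled after 12 weeks on a diet with added copper, iron, manganese, selenium and zinc, and all had gone through handling stress and a final period of lowered oxygen, whatever their diet. The remaining 20 fish received organic minerals (OM) and are used here only as other fish in which the same probes were measured. The labels do not tie the high and low levels to the numbered diets of the trial, so the mineral content of either feed is not given here. Each diet was fed in several tanks, but the labels name no tank. Fish that shared a tank were therefore treated as independent, and the p-values measure the spread between fish only.

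The midgut is where much of the dietary mineral load meets the epithelium. Enterocytes take up metal ions through carriers of the apical membrane, hold them in binding proteins such as metallothionein and ferritin, and pass them to the blood through exporters. Copper, iron, manganese and zinc serve as cofactors of many enzymes, and selenium is built into selenoproteins, some of which remove peroxides. The probes on the array are identified in the files by codes that are not paired with gene names, so no member of these pathways could be followed, and the tissue label could not be checked against midgut markers. The values below are therefore those of probes.

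Each array carries 14841 probes with 1 spot each. The level of a probe is given as its log2 signal relative to the 75th percentile of its own array, so that 0 is a spot as bright as that percentile and a difference of 1 is a doubling. The 75th percentile, which stands for the brightness of an array, was between 260 and 401 intensity units (median 330) at high IM and between 87.9 and 435 (median 296) at low IM. The difference in means was 63.5 units (two-sided exact permutation test, p = 0.316, adjusted p = 0.554 over 7 array measures). The 3 dimmest arrays, with 87.9, 94.6 and 123 units, were all from low IM fish. Between 8786 and 12101 probes were well above the background at high IM and between 9650 and 12455 at low IM (exact permutation test, p = 0.878). There were 7 slides and 2 days of scanning. Day 1 held 2 high IM and 4 low IM fish, all females, and day 2 held 4 high IM and 4 low IM fish of both sexes.

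The level of IM was not the main axis of variation among the 14 fish. The first principal component, with 22.5% of the variance over the 11036 probes measured on every array, separated the scan days, with all day 1 arrays between -53.7 and -13.1 and all day 2 arrays, the 3 females among them included, between 2.62 and 55.2. The second, with 17.7%, ran mostly along the mineral level. The 6 high IM fish had scores from -39.6 to -5.43, and 5 of the 8 low IM fish had scores from 18.4 to 55.4. The other 3 low IM fish, female 3 at -31.0, male 2 at -14.2 and male 5 at -1.15, lay among or next to the high IM fish. The groups thus overlapped on this axis. As the scores were computed from the probes compared below, they are a description and no test.

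**Figure D1:**
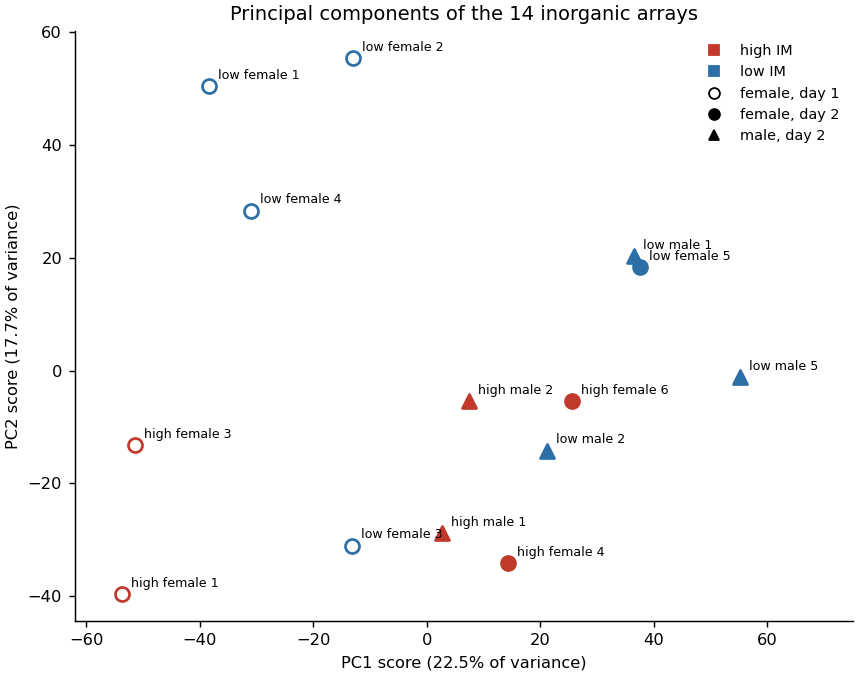
Scores of the 14 arrays on the first component (horizontal, 22.5% of the variance) and the second component (vertical, 17.7%), red for high IM and blue for low IM, open circles for females scanned on day 1, filled circles for females and triangles for males scanned on day 2. Day 1 arrays lie on the left, and low IM female 3 and low IM male 2 lie among the high IM fish.

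More probes had lower than higher signal at high IM. The scanner software marked 11436 probes as well above background on 6 or more of the arrays, and these were tested. Of them 706 (6.17%) met the study's criteria for differential expression, a change of more than 1.75-fold with p under 0.05, here taken from limma without adjustment. At high IM 184 of them were higher (1.61% of those tested) and 522 lower (4.56%). In a tissue sample, fewer cells of a type and less RNA per cell cannot be told apart. Unadjusted p-values under 0.05 were found for 1986 probes, 17.4% of those tested. When the limma p-values of all probes were adjusted by the Benjamini-Hochberg method, 58 (0.507%) stayed under 0.05. Of these 22 (0.192%) rose at high IM and 36 (0.315%) fell, and 55 of the 58 also met the criteria for fold change and unadjusted p. The median log2 fold change of all tested probes was -0.04.

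The share of rising probes among those meeting the criteria, 26.1%, depended on the scaling. With arrays scaled to their median it was 55.4% (396 higher and 319 lower), which moved the median of all probes to 0.11, and with the 75th percentile taken over the probes detected on all 14 arrays it was 15.0% (120 higher and 679 lower). It was 38.4% after quantile normalization and 37.7% after the normexp background correction. The prevalence of lower signal at high IM is therefore a statement about the scale in use. With 1 fish left out the share lay between 21.2% (without high IM male 1) and 34.9% (without high IM female 1, 222 higher and 414 lower). The array of high IM female 1 had the fewest probes well above the background (8786) and the most at its lowest value (3793). Its part in the balance was not tested.

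The balance also changed with the brightness of the probe. The tested probes were split by mean signal into 4 sets of 2859. In the dimmest set, 20 met the criteria as higher and 213 as lower at high IM, and its median log2 fold change was -0.22. In the second set the counts were 39 and 146, with a median of -0.11, and in the third 54 and 89, with a median of 0.02. In the brightest set 71 were higher and 74 lower, with a median of 0.11. The excess of lower signal at high IM was thus largest in the dimmest set and narrowed with brightness, and the brightest set had nearly equal counts. The median signal of an array relative to its 75th percentile averaged -2.66 ± 0.17 on the log2 scale in high IM fish (SD, n = 6) and -2.51 ± 0.11 in low IM fish (SD, n = 8), a difference of -0.15 (exact permutation test, p = 0.0693, adjusted p = 0.485 over the 7 array measures). Its part in the shift of the dim probes was not tested.

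**Figure D2:**
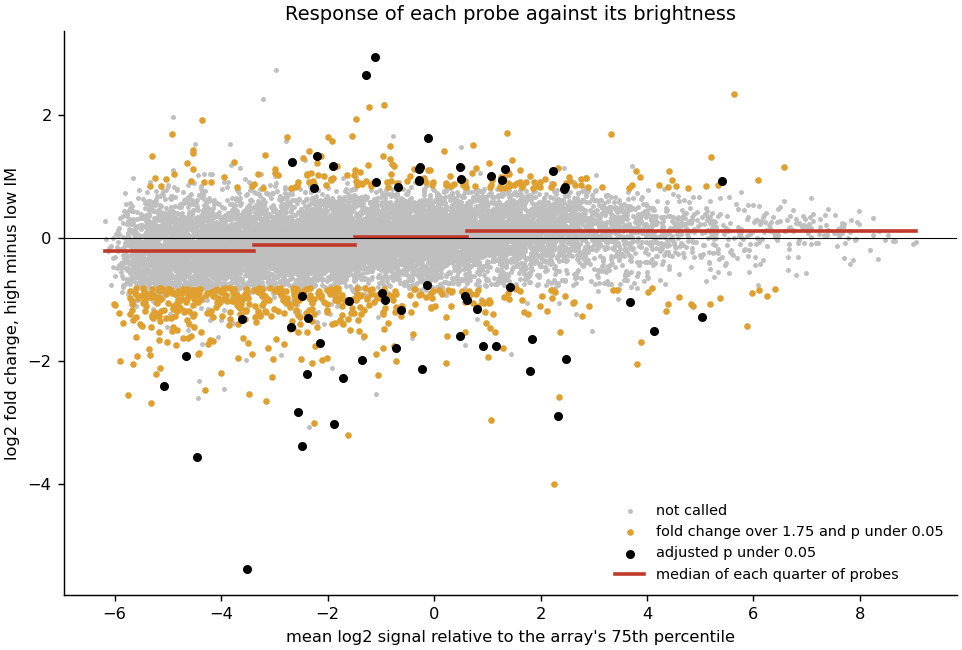
Log2 fold change of each probe, high minus low IM (vertical), against its mean log2 level, scaled to the 75th percentile of each array, (horizontal). Yellow points met the criteria, black points passed the adjustment, and red lines give the median of each of the 4 sets by brightness, from -0.22 in the dimmest to 0.11 in the brightest.

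The counts also differed with detection by the scanner software. Among the probes detected above background on 6 to 9 arrays, 104 of 1021 (10.2%) met the criteria, 8 higher and 96 lower at high IM. Among those detected on 10 to 13 arrays it was 195 of 2271 (8.59%, 20 higher and 175 lower), and among those detected on all 14 it was 407 of 8144 (5.00%, 156 higher and 251 lower). A probe could enter the test through 6 of the 8 low IM arrays, but through the high IM arrays alone only with all 6. The filter thus admitted probes lost at high IM more readily than probes lost at low IM. With no filter on dim probes, 193 probes met the criteria as higher and 674 as lower at high IM, against 184 and 522 with it. The part of the filter in the counts by detection, and in those by brightness, was not tested. Of the 184 probes higher at high IM, 174 were detected on all 6 high IM arrays and 157 on all 8 low IM arrays. Of the 522 lower ones, 252 were detected on all 6 high IM arrays, 348 on all 8 low IM arrays, and 100 on 3 or fewer high IM arrays. A search for probes detected on all arrays of one level and on at most 1 array of the other found 0.

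Identifiers starting with Ssa# made up 10564 of the tested probes and those starting with Omy# 872. The criteria were met by 669 (6.33%) and 37 (4.24%) of them. After adjustment 57 and 1 passed.

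The changes were mostly of moderate size. The 184 probes higher at high IM had a median log2 fold change of 0.95 and reached 2.94. The 522 lower probes had a median of -1.04 and reached -5.38, in Ssa#S18892500. For that probe high IM female 1, female 4 and male 2 sat at the lowest value of their arrays, so its size depends on that floor. Among the 58 probes that passed the adjustment, the 22 rising ones had a median of 1.05 and the 36 falling ones -1.68. Of the 58, 48 were well above the background on every array. In these 48, 20 probes rose, by 0.79 to 2.65 on the log2 scale with a median of 0.98, and 28 fell, with a median of -1.38.

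The groups were fully separated for few probes. For 105 of the tested probes (0.918%) every high IM fish lay on one side of every low IM fish, with 56 higher (0.49%) and 49 lower (0.428%) at high IM. They included 39 of the 58 probes past the adjustment, 16 rising and 23 falling. They also included 61 of the 706 that met the criteria. With a fish left out the count was at least 107, and it was over 1.5 times as high without high IM female 1 (164), high IM female 4 (165), high IM female 6 (195), low IM female 3 (202) or low IM male 2 (294).

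The fish did not contribute equally. For each of the 58 probes the midpoint between the group means was taken, and each fish was placed on the high IM side or the low IM side of it. The high IM fish lay on their own side for 52 to 58 probes, with male 1 on it for 58 of 58 and female 4 for 52 of 58. Among the low IM fish, female 2, female 5 and male 1 lay on the high IM side for 0 probes and female 1 for 2. Female 4 lay there for 4, male 5 for 5, female 3 for 6 of 58 and male 2 for 10 of 57. Over the 706 probes the differences were wider. Low IM male 2 lay on the high IM side for 41.7% of those measured and low IM female 3 for 34.1%, against 4.39% to 21.1% in the other low IM fish. Among the high IM fish, female 6 lay on its own side for 65.1% and the others for 81.6% to 91.9%. As these fish also set the midpoints, the counts are a description. Without low IM male 2, 438 probes passed the adjustment, and without low IM female 3, 309 did, against 58 with all fish. Without high IM male 1, low IM female 2 or low IM male 1, 23 passed, without low IM female 5 it was 26, without low IM male 5 it was 33, and without high IM female 3 it was 34. It was 36 without high IM male 2.

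**Figure D3:**
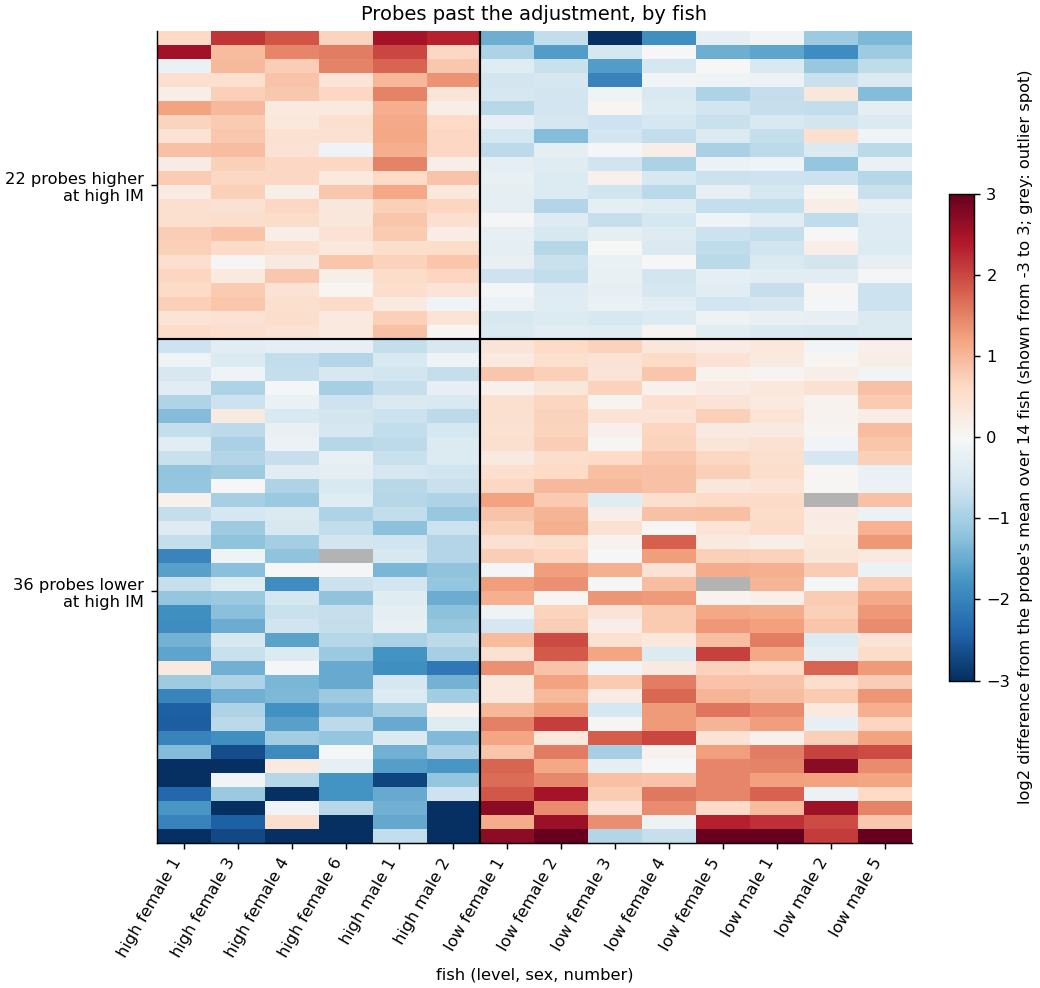
Log2 difference from the probe's mean over the 14 fish (colour, shown from -3 to 3) for the 58 probes past the adjustment (vertical, 22 higher above and 36 lower below at high IM) in each fish (horizontal, 6 high IM fish on the left and 8 low IM fish on the right). Grey cells are outlier spots, left out of the fit, and low IM male 2 and female 3 lay on the high IM side of the midpoint for 10 and 6 of the probes.

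Single probes are shown for the extremes, the 2 largest rises and 2 largest falls among the probes that passed the adjustment and were well above the background on all 14 arrays. Their identity as genes is not given in the sources used here, and no sequence is printed for them.

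Probe Ssa#S19102066 had the largest rise of this set. Its log2 level was lowest at -0.85, had a median of 0.03 and was highest at 1.05 in the 6 high IM fish, against -3.32, -2.74 and -1.48 in the 8 low IM fish. The groups did not overlap, and the lowest high IM fish, male 2, lay above the highest low IM fish, female 4. The high IM fish averaged 0.05 ± 0.69 (SD, n = 6) and the low IM fish -2.60 ± 0.63 (SD, n = 8). The log2 fold change was 2.65, its standard error 0.33 and its limma adjusted p = 0.00304, and the level was 6.28 times as high at high IM. It was 2.53 in females and 2.82 in males. On the 4 slides that held both levels the difference was 3.81, 1.22, 2.90 and 3.00. The spots of the low IM fish were dim, with processed signals between 16.2 and 57.2 units. After the normexp background correction, in which dim spots differ less, the log2 fold change was 1.58.

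Probe Ssa#GRASP209733777 had the largest fall and was among the brighter probes at low IM. Its log2 level was lowest at -0.72, had a median of 1.06 and was highest at 2.44 in the high IM fish, against 3.38, 3.74 and 4.21 in the low IM fish. The groups did not overlap. The low IM fish lay close together and the high IM fish were spread widely, with averages of 0.88 ± 1.19 in the high IM fish (SD, n = 6) and 3.77 ± 0.28 in the low IM fish (SD, n = 8). The log2 fold change was -2.89, its standard error 0.40 and its limma adjusted p = 0.00505, so that the level at low IM was 7.39 times that at high IM. It was -2.75 in females and -3.16 in males, and on the 4 slides -4.80, -0.95, -3.18 and -3.25.

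These probes tended to run in opposite directions from fish to fish within the levels, with exceptions at low IM. High IM female 1 and male 1 had the highest levels of Ssa#S19102066 (1.05 and 0.54) and the lowest of Ssa#GRASP209733777 (-0.72 and -0.23). High IM male 2 and female 3 had the lowest levels of Ssa#S19102066 (-0.85 and -0.51) and levels of 1.37 and 2.44 of Ssa#GRASP209733777. Among the low IM fish, female 4 and female 3 had the highest levels of the rising probe (-1.48 and -1.99) and the lowest of the falling one (3.38 and 3.41). Their arrays were among the 3 dimmest, with 75th percentiles of 123 and 87.9 units. The other dim array, low IM male 5 with 94.6 units, had levels of -2.54 and 3.71. Low IM female 1 was next highest in the rising probe (-2.39) yet had the highest level of the falling one (4.21). Low IM male 2 had the lowest level of the rising probe (-3.32) and 3.73 of the falling one. The part of array brightness was not tested. Within the levels, Pearson r between the deviations of these probes from their group means was -0.67 over the 14 fish, the largest in size of the 6 pairs among the named probes. This is a description, chosen after the values were seen, and both probes share the scaling of each array.

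Probe Ssa#S35673757 was the next in size among the falls. Its log2 level was lowest at -3.55, had a median of -2.79 and was highest at -1.96 in the high IM fish, against -1.41, -0.58 and 0.47 in the low IM fish, with no overlap. The averages of -2.84 ± 0.58 in the high IM fish (SD, n = 6) and -0.56 ± 0.70 in the low IM fish (SD, n = 8) gave a log2 fold change of -2.28, with standard error 0.33 and limma adjusted p = 0.00724. The difference was -2.66 in females and -1.56 in males, and it was -3.26 on scan day 1 and -1.61 on scan day 2. All males were scanned on day 2, and a difference between the sexes was not detected for this probe (limma adjusted p = 0.999 for the difference itself).

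Probe Ssa#GRASP209733205, the next among the rises, was the least firm of the named probes. Its log2 level was lowest at -0.42, had a median of 0.66 and was highest at 1.53 in the high IM fish, against -1.90, -0.83 and -0.23 in the low IM fish. The groups overlapped, as high IM female 1 lay below low IM female 5. The averages of 0.70 ± 0.68 in the high IM fish (SD, n = 6) and -0.92 ± 0.51 in the low IM fish (SD, n = 8) gave a log2 fold change of 1.63, with standard error 0.30 and limma adjusted p = 0.0265. On the 4 slides the difference lay between 0.32 and 2.07. The adjusted p was above 0.05 with each of 6 fish left out in turn, at most 0.0789 (without high IM male 1).

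**Figure D4:**
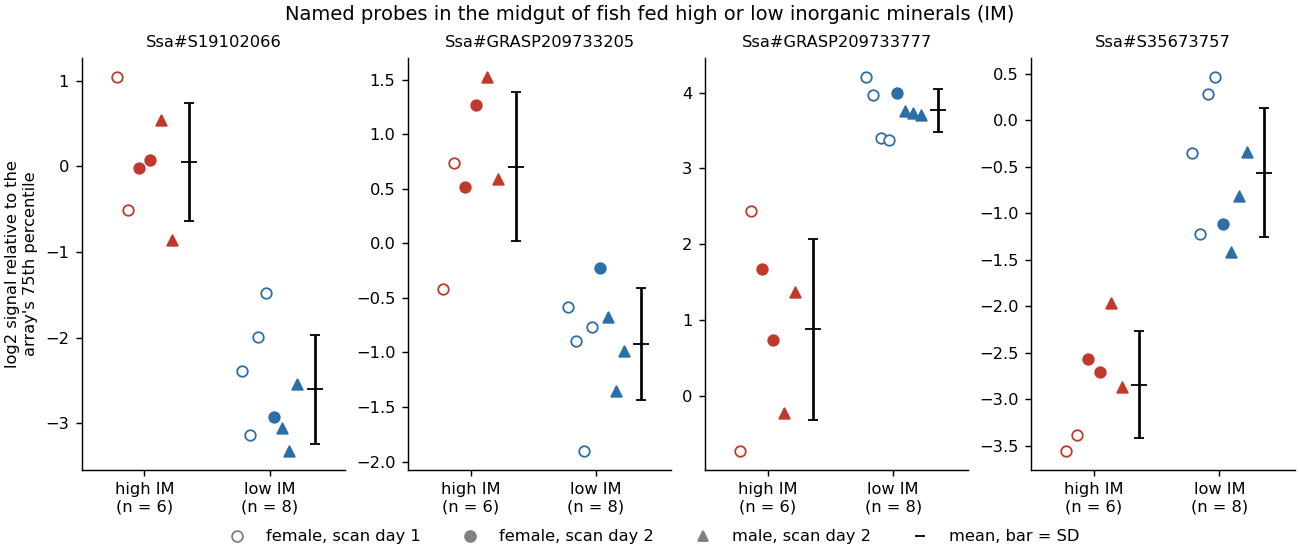
Log2 level, scaled to the 75th percentile of each array (vertical), of the 4 named probes in each high IM fish (left, n = 6) and low IM fish (right, n = 8), with the mean and SD as bars. The groups do not overlap except for Ssa#GRASP209733205, in which high IM female 1 (-0.42) lies below low IM female 5 (-0.23).

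The probes called in the pooled fit had the same direction in both sexes, with few exceptions. In a fit with the sexes apart, 845 of 11434 probes (7.39%) met the criteria between high and low IM females, 276 higher and 569 lower, and 607 (5.31%) between high and low IM males, 217 higher and 390 lower. The balance in males turned with the processing, with 289 higher and 232 lower after quantile normalization and 184 higher and 89 lower after normexp. After adjustment 4 probes passed in females, all of them lower at high IM, and 0 in males (limma, 756 at an unadjusted p under 0.05), with only 2 males at high IM. A difference in response between females and males passed the adjustment for 0 probes (limma, 191 at an unadjusted p under 0.05). Of the 706 probes that met the criteria in the pooled fit, the difference had the same sign in females for 706 and in males for 701, and all 58 past the adjustment had it in both. Of all 11436 tested probes, 9900 had the sign of the pooled fit in females and 8738 in males. These fish are the ones that chose the probes, so the direction was largely fixed by the choice.

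The direction of the called probes was also compared within scan days and slides. The sign was shared by all 58 probes on both scan days, and by 706 of the 706 on day 1 and 705 on day 2. On slides 1, 2 and 4 all 58 kept it, and on slide 7, with 1 fish of each level, 56 did. Of the 706, 540 had the same sign on each of the 4 slides that held both levels. Of all 11436 tested probes, 9193 had the sign of the pooled fit on day 1, 9064 on day 2 and 2929 on each of the 4 slides. Here too the arrays are those that chose the probes, so the direction was largely fixed by the choice. With the scan day as a block in limma, 848 probes met the criteria and 355 passed the adjustment, while blocking on the slide gave 1116 and 69. Of the 58 probes, 58 were among the 355 and only 28 among the 69, so that more calls were lost than kept with the slide in the fit. With that block 55 of the 58 still met the criteria for fold change and unadjusted p. Slides 3, 5 and 6 held 1 level only, so their fish carried no comparison in that fit. Among the named probes, Ssa#S19102066 still passed, and the limma adjusted p was 0.0502 for Ssa#GRASP209733777, 0.0533 for Ssa#S35673757 and 0.0813 for Ssa#GRASP209733205. In that order their log2 fold changes in this fit were 2.71, -3.03, -2.32 and 1.40, with standard errors of 0.43, 0.54, 0.43 and 0.35.

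The number of probes past the adjustment moved widely with the settings, from 0 with the fish number as a block to 1299 with array weights in limma. The direction of the 58 probes held under every alternative in which they were tested. Each alternative drew on the arrays that chose the probes, so the direction was largely fixed by the choice. At least 50 of the 58 met the criteria for fold change and unadjusted p under each alternative, with 2 exceptions. These were the normexp background correction, in which dim spots differ less and 33 remained, and the test of probes detected on all 14 arrays only, which held 48 of the 58 and called 45. After that correction 175 probes met the criteria and 3 passed the adjustment.

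**Figure D5:**
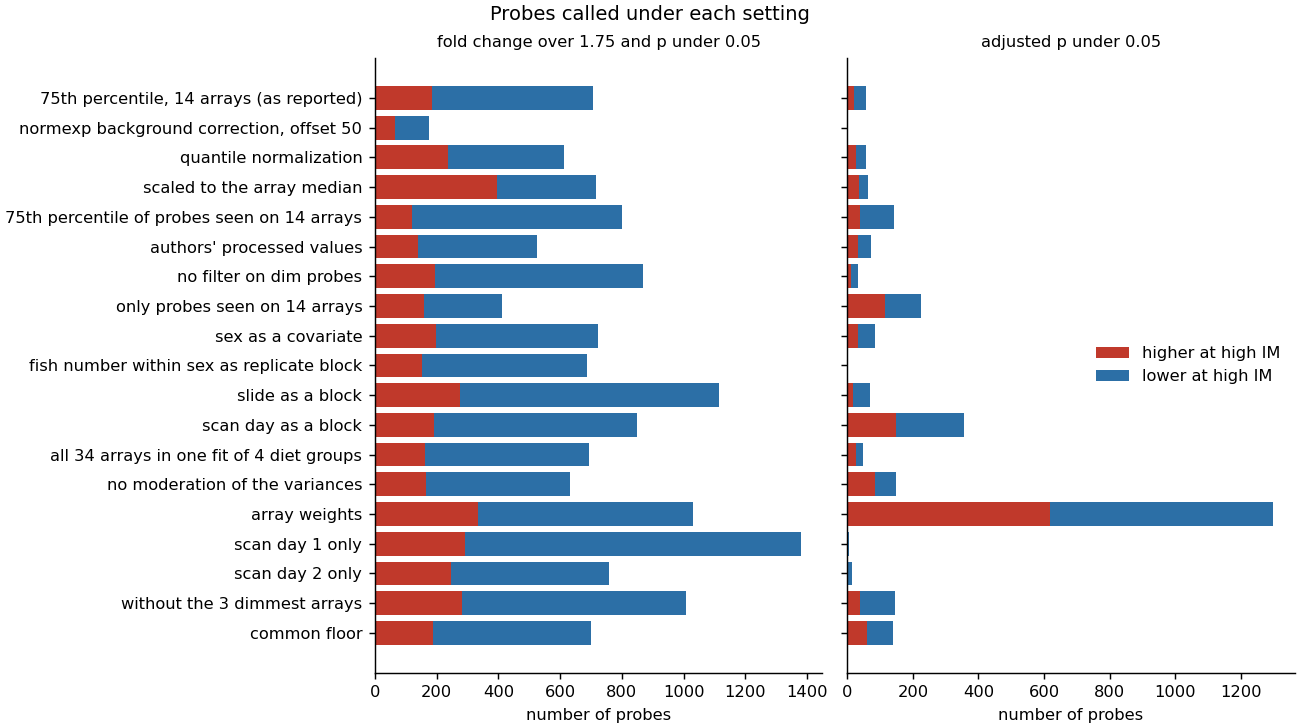
Number of probes (horizontal) that met the criteria for fold change and unadjusted p (left panel) or passed the adjustment (right panel) under each processing setting, red for higher and blue for lower at high IM. Counts in the left panel run from 175 to 1380, and those in the right panel from 0 to 1299.

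The spread between fish was on the whole smaller at high IM. Over all tested probes the median SD of the log2 level was 0.45 at high IM and 0.50 at low IM, the median ratio of the SDs was 0.879, and 40.1% of the probes had the higher SD at high IM. For the 184 probes higher at high IM the median ratio was 0.719, and for the 522 lower ones it was 0.983. The difference in spread was not tested, and the 3 dimmest arrays lay in the low IM group.

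The fish given organic minerals took no part in choosing the probes. Their arrays were on the same 7 slides and 2 scan days as the IM arrays. High OM females 3 and 4 and low OM females 1, 2, 3 and 4 were scanned on day 1, and the other OM fish on day 2. The sexes were pooled, with 3 females and 6 males at high OM and 6 females and 5 males at low OM. The part of slide, day and sex in a shared direction was not tested. Of the 58 probes, 56 (96.6%) differed in the same direction between high and low OM, against 65.5% of all tested probes. All 22 rising probes and 34 of the 36 falling ones did so. Their changes were smaller in OM, with a median log2 fold change of 0.70 for the rising probes and -0.65 for the falling ones, against 1.05 and -1.68 in the IM fish in which they had been selected. Between high and low OM 787 of the probes tested here (6.88%) met the criteria for fold change and unadjusted p. They included 19 of the 58, 9 rising and 10 falling, all in the direction seen in IM, and 165 of the 706, of which 162 had the same direction. Over the 706 the same sign was found in OM for 579 (82.0%), which were 178 of the 184 higher at high IM and 401 of the 522 lower.

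Among the named probes, Ssa#S19102066 changed by 1.57 on the log2 scale between high and low OM (standard error 0.36, adjusted p = 0.0273 by limma over all 34 arrays). Its log2 level was -0.98, -0.52 and 0.05 at the lowest, the median and the highest of the 9 high OM fish, against -3.64, -2.04 and 0.06 in the 11 low OM fish. Here the groups overlapped, with the highest low OM fish level with the highest high OM fish. The log2 difference of Ssa#GRASP209733777 was -2.20 (standard error 0.52, adjusted p = 0.0335 by limma). Its lowest, median and highest log2 levels were -1.998, 0.997 and 2.49 at high OM, against 0.92, 3.12 and 4.96 at low OM, with overlap. At low OM the 5 males lay between 3.05 and 4.96 and the 6 females between 0.92 and 4.63. At high OM the 6 males lay between -1.998 and 1.56 and the 3 females between 0.66 and 2.49. The levels of this probe thus overlapped in females and not in males. A difference between the sexes in OM was not tested here. The log2 fold change of Ssa#GRASP209733205 was 1.45 (standard error 0.43, adjusted p = 0.0787 by limma). Its 9 high OM fish lay between -0.60 and 0.81. At low OM its 5 males lay between -3.62 and 0.27 and its 6 females between -1.04 and 0.78. The log2 fold change of Ssa#S35673757 was -0.65 (standard error 0.54, adjusted p = 0.526 by limma), and its levels overlapped widely. Its median levels were -1.47 at high OM and -1.50 at low OM. High OM female 4, at -6.47, sat at the lowest value of its array and was not well above the background. The size of this change therefore depends on that floor. In the same fit of all 34 arrays, the IM changes of Ssa#GRASP209733205 and Ssa#S35673757 also missed the threshold (limma adjusted p = 0.128 and 0.0911), so their p-values in OM are not to be set against those of the 14 arrays. The difference between the IM and OM responses did not pass the adjustment for any of the 4 (limma adjusted p from 0.915 to 0.962), nor for any of the 12885 probes tested over all 34 arrays (0 probes in limma, 437 at an unadjusted p under 0.05).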

How the data were processed

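Midgut RNA was labelled with Cy3 and hybridised to one-colour Agilent arrays. The deposited scanner files give an intensity per spot, background-subtracted by Feature Extraction 12.0.1.1 and not scaled across arrays. A table of processed intensities that the authors deposited (median minus local background times 1 factor per array, 99.4% of 188443 values within 1 unit or 1%) served as an alternative.

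Here each processed signal was divided by its array's 75th percentile and taken to log2. Control spots and 598 spots marked as outliers in the deposited flags were left out. Probes that the software marked as well above background on 6 or more of the 14 arrays were tested, and 3405 were not. High was compared with low IM in limma 3.58.1 (R 4.3.3) with moderated variances and no covariate. The criteria, a fold change above 1.75 and p under 0.05, are those of the study. From which test its p for single probes came is not given in the sources used here. Adjustment was by the Benjamini-Hochberg method over all probes. Array measures were compared by exact permutation (scipy 1.17.1). The fit was tested on simulated data.

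The rule for named probes was the 2 largest rises and falls past the adjustment and detected on all 14 arrays. The comparison, lists and rule were chosen with earlier results of these data known. As 0 of 14841 identifiers matched the reference gene table, the functional groups and cell type markers were not analysed here. The alternatives covered background correction (run on the median, with an offset of 50), scaling, the filter, covariates and blocks, array weights and each fish left out. Subsets by scan day or brightness and a common floor for dim spots were added after seeing the data. The number of arrays limits the precision.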

Additional observations from a re-analysis of the deposited data

Results flagged for a closer look

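In 28 sets of values (array measures, component scores and named probes by level), the highest or lowest fish was compared with its neighbour by Dixon's criterion, and 2 fish stood apart. Chance alone gives about 1 in 20. The first was low IM female 3 on the third principal component (13.4% of the variance), with a score of 79.35 against 15.4 in the next low IM fish. Its array was the dimmest of the 14, with a 75th percentile of 87.9 intensity units, and without it 309 probes passed the adjustment, against 58 with all fish. The second was high IM male 1, in which 63 of 200 spike-in control spots were well above the background, against 24 in the next high IM fish. It stood apart within its level only, as low IM male 2 had 69 and low IM male 1 had 50. Without high IM male 1, 23 probes passed the adjustment. The causes were not tested.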

How the results depend on the processing

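The 706 probes meeting the criteria became 175 after normexp, 413 when only probes detected on all 14 arrays were tested, 1116 with the slide as a block, 1380 on scan day 1 only, and 578 to 911 with 1 fish left out. The 58 past the adjustment became 3 after normexp, 143 with the 75th percentile over probes detected on all arrays, 34 without the filter on dim probes, 226 with probes detected on all arrays only, 355 with the scan day as a block, 150 without moderation, 1299 with array weights, 6 on day 1, 14 on day 2, 146 without the 3 dimmest arrays, 141 with a common floor, and 23 to 438 with 1 fish left out. With the fish number within sex as a replicate block, 688 met the criteria and 0 passed the adjustment (limma, 1090 at an unadjusted p under 0.05). Low IM females 2 and 5, low IM male 5 and high IM female 6 had no fish of the same number at the other level. These fish carried no comparison in that fit. The numbers share no known animal or tank, and deviations of same-numbered fish correlated between -0.244 and 0.196 in 5 pairs. They were therefore not taken as pairs. The 3 pairs above 0.1 (female 1, female 3 and male 1) shared a slide, and female 4 and male 2 did not. The named probes kept their direction throughout, in fits to the arrays that chose them. The block raised their adjusted p to between 0.235 and 0.383, and normexp raised it to 0.104 for Ssa#S19102066, 0.123 for Ssa#GRASP209733205 and 0.315 for Ssa#S35673757. After normexp the log2 fold changes of these 3 probes were, in that order, 1.58, 1.16 and -1.15. That of Ssa#GRASP209733777 was -2.67. With the slide as a block only Ssa#S19102066 stayed under 0.05. In females the count of 845 became 174 after normexp, 506 with probes detected on all arrays only, and 599 to 1261 with 1 fish left out. In males the count of 607 became 273 after normexp (184 higher and 89 lower) and 326 to 811 with 1 fish left out, the lowest without high IM male 1. The response differed between the sexes for 0 to 2 probes with 1 fish left out. The 105 probes without overlap became 29 after normexp and 107 to 294 with 1 fish left out, which removes a constraint by its construction. Probes detected on all arrays of one level and on at most 1 of the other numbered 0 to 2 with 1 fish left out. Scaling to the spike-in spots was not run, as 315 of 2800 such spots were well above the background. Other causes were not tested. Dim spots limit the depth, since between 995 and 3793 probes per array sat at the array's lowest value.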
